A study of Mus musculus with 10 samples.

Results

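Expression of 38 genes of fatty acid oxidation and ketone body metabolism was compared between livers of cachectic (CACS) and non-cachectic (NCACS) mice with lung tumours. The genes were listed by name, with no threshold on their values, from a table of raw counts for 43629 Ensembl genes. They comprise 20 mitochondrial genes, 14 peroxisomal genes and 4 genes whose products are shared between compartments or lie elsewhere. All 38 were counted highly enough to be among the 14143 genes tested. RNA was sequenced from the livers of 5 CACS and 5 NCACS male KL mice, an inducible lung tumour model that carries Lkb1 flox/flox on an FVB background. Both groups had received Ad5CMV-Cre, an adenovirus that expresses Cre recombinase from a general promoter, through the nose as adults, which deletes Lkb1 in infected airway cells and starts tumour growth. Both groups therefore carried tumours, and no tumour-free liver was compared. CACS mice were those that had lost more than a set share of their peak body weight. At collection, weight change ranged from -14 to -3% in NCACS mice and from -33 to -29% in CACS mice, and time of collection and food intake are not given in the labels.

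Mitochondrial β-oxidation starts when the carnitine shuttle carries long-chain acyl groups across the inner membrane. Acyl-CoA dehydrogenases, hydratases, hydroxyacyl-CoA dehydrogenases and thiolases then shorten the chain step by step, and in the fasted liver much of the acetyl-CoA made is turned into ketone bodies for export. Peroxisomes use a parallel set of enzymes for very long and branched chains and for bile acid precursors, and hand shortened chains on as carnitine esters or free acids. Many genes of both sets are known targets of the fatty acid-sensing nuclear receptor PPARα.

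The 10 libraries held between 31459179 and 40746178 counts, and levels are given as TMM-normalized CPM, counts scaled to a common library size. Of all genes tested, 538 passed an adjusted p-value of 0.05 in edgeR's quasi-likelihood test, 267 higher and 271 lower in CACS livers. Within NCACS mice, liver 13 was farthest from the others over all genes, with a chi-square per degree of freedom of 154.9 to 266.2 against 34.5 to 129.2 between the other NCACS pairs, and pairs of CACS livers lay between 48.4 and 108.5. NCACS mouse 13 and CACS mouse 18 were at opposite extremes of their groups for most of the oxidation genes, and leaving out 1 of them turned the fitted direction of several genes. Bulk liver RNA cannot tell fewer cells of a type from less RNA per cell. The labels do not say whether the mice shared litters, cages or preparation days.

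No oxidation gene was called different between CACS and NCACS livers. With edgeR's quasi-likelihood test adjusted over all genes, 0 of 38 passed, against 3.80% of all genes tested. At an unadjusted p-value under 0.05 the number was 1 of 38 (Crot, which encodes the peroxisomal carnitine octanoyltransferase), against 21.6% of all genes. In 0 of 38 were the 2 groups free of overlap in log2 CPM, against 7.07% of all genes. DESeq2 called 1 of 38, again Crot, against 9.80% of the genes it was fitted on, and limma-voom called 0. The fitted log2 fold change (CACS minus NCACS) was above 0 for 12 genes and below 0 for 26, with a median of -0.05, beside a median of -0.01 over all genes tested. Under the 7 other tests, factors and filters that kept all livers, the direction turned for Acot2, Etfa and Acad11 with limma-voom, for Acaa2 with upper-quartile factors and for Etfa with library totals, and 34 genes kept theirs. Adjusted edgeR p-values of the 38 genes ranged from 0.126 to 0.994.

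**Figure D1:**
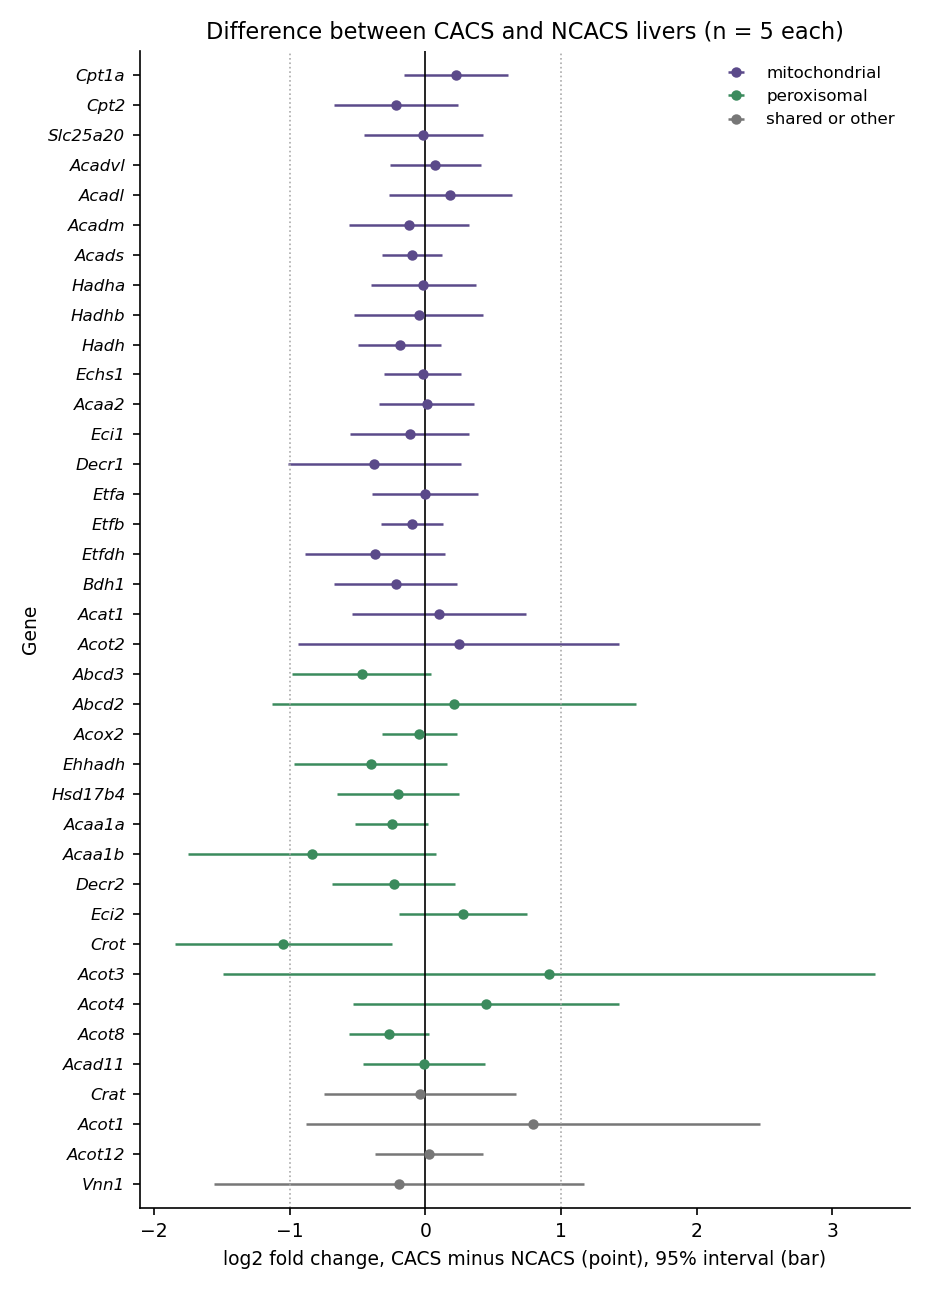
Fitted log2 fold change of each of the 38 genes (x axis, CACS minus NCACS, points) with its 95% interval (bars) by gene (y axis), coloured by compartment, from edgeR on 5 livers per group; dotted lines mark 1 log2 unit on either side of 0. The interval lies below 0 only for Crot, and those of Acot1, Acot2, Acot3, Abcd2 and Vnn1 are the widest.

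The intervals limit how large a difference these livers could have hidden. For 29 of the 38 genes the 95% interval lay within 1 log2 unit of 0 on either side, and for 12 within 0.5 log2 units, against 10878 and 5538 of the 14143 genes tested. The half-width of the interval had a median of 0.45 and ran from 0.22 for Acads to 2.4 for Acot3. At least 1000 counts were available in every liver for 30 of the 38 genes. The median SD of log2 CPM was 0.37 in NCACS and 0.39 in CACS livers for the 38 genes, against 0.26 and 0.24 over all genes tested. For each of the 38 genes, the highest liver of a group exceeded the lowest of the same group by a larger ratio than the 2 group means differed by, in both groups. Such a ratio of extremes tends to exceed a ratio of means for any gene. The share over all genes was not counted, so this is not a trait of the 38.

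By compartment, the 20 mitochondrial genes had 6 fitted log2 fold changes above 0 and 14 below, with a median of -0.03 and a range of -0.38 to 0.24. The 14 peroxisomal genes had 4 above and 10 below, with a median of -0.22 and a range of -1.05 to 0.91. Summed over the mitochondrial genes, the level was 5656 ± 884 CPM for NCACS and 5470 ± 1219 CPM for CACS (SD over 5 livers). For the peroxisomal genes the sums were 3645 ± 845.5 and 2808 ± 788.3 CPM. The mitochondrial means differed by less than the SD of either group, whereas the peroxisomal difference was below the NCACS SD and above the CACS SD. The groups overlapped in both compartments. The difference between compartments was not tested.

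The promoters of 5 genes are shown because these genes stand for the patterns described next. Crot and Acaa1b had the lowest fitted fold changes, Cpt1a and Acadm catalyse defining mitochondrial steps, and Acot4 belongs to a thioesterase cluster that varied widely between livers. Sequences are from RefSeq on GRCm38.p6, from 250 bases before to 50 bases after the annotated start, read 5′ to 3′ on the gene's strand. Capitals mark the letters AGGTCA or, on the other strand, TGACCT, the core motif that PPARα and related nuclear receptors bind. The windows are chr5:8997097-8997396 (reverse strand), chr9:119157044-119157343 (reverse strand), chr19:3323051-3323350 (forward strand), chr3:153944594-153944893 (reverse strand) and chr12:84038129-84038428 (forward strand).
Crot: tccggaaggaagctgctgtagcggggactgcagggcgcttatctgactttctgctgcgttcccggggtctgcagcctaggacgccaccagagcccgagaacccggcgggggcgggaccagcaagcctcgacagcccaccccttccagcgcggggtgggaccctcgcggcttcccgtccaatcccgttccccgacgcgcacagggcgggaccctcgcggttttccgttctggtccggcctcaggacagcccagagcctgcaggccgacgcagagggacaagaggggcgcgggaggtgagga
Acaa1b: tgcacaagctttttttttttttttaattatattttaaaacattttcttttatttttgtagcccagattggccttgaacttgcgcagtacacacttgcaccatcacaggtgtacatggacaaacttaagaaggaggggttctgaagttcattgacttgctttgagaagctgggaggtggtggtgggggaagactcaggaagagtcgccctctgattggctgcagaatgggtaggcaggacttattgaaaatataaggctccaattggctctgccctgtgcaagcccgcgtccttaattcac
Cpt1a: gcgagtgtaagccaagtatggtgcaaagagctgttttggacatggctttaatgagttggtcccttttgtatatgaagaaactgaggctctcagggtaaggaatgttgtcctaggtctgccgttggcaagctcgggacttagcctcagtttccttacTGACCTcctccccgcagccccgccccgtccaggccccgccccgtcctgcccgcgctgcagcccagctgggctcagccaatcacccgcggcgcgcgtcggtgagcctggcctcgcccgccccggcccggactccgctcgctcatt
Acadm: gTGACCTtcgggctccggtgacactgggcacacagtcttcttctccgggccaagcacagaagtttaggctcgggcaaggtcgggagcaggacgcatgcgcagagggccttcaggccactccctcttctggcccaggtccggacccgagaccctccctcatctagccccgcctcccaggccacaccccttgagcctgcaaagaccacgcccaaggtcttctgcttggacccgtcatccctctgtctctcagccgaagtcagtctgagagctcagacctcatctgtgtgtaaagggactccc
Acot4: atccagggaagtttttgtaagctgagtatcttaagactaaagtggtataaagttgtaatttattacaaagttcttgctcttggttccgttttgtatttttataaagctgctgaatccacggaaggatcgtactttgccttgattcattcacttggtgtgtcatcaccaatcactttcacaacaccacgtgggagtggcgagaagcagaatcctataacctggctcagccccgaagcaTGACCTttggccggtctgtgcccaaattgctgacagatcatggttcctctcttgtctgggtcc

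RefSeq windows were at hand for 31 of the 38 genes (35 windows, since some genes have more than 1 start). The exact core motif on either strand was in 8 of the 35 windows (22.9%), beside 16.3% of 32851 promoter windows of the same length. The genes with it were Cpt1a, Acadvl, Acadm, Echs1, Acot3, Acot4 and Acot12. A pair of AGGTCA copies in the same direction 1 base apart, the form PPARα binds with its partner RXR, was in 0 of 35 windows and in 0.0396% of all windows. With the fourth base of each copy left free (AGGNCA), the pair was in 0 of 35 and 0.381%. The absence of these letters from a short window says nothing about binding of the receptor to these genes. The Hadha and Hadhb windows overlap head to head on opposite strands, at chr5:30154931-30155230 (reverse strand) and chr5:30155003-30155302 (forward strand).

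In the carnitine shuttle, Cpt1a encodes the outer-membrane transferase that commits long-chain acyl groups to mitochondrial oxidation (ENSMUSG00000024900, chr19:3322334-3385733, forward strand of GRCm38). Its level was 434, 455, 272, 333 and 415 CPM in NCACS mice 11 to 15 and 534, 439, 525, 404 and 326 CPM in CACS mice 16 to 20. The groups overlapped between 326 and 455 CPM, with CACS mice 16 and 18 above every NCACS liver and NCACS mouse 13 below every CACS liver. The means were 382 ± 77.0 CPM (SD, n = 5) for NCACS and 446 ± 86.9 CPM (SD, n = 5) for CACS, a log2 fold change of 0.22 (95% interval -0.16 to 0.61, edgeR adjusted p = 0.493). Cpt2, which frees the acyl group again on the inner side, measured 181, 171, 114, 138 and 219 CPM in NCACS mice 11 to 15 and 138, 137, 209, 125 and 99.5 CPM in CACS mice 16 to 20. NCACS mouse 15 was highest and CACS mouse 20 lowest, and the log2 fold change was -0.22 (95% interval -0.67 to 0.24, edgeR adjusted p = 0.590). Slc25a20, the carnitine-acylcarnitine carrier between them, had means of 96.2 ± 21.8 CPM (SD, n = 5) for NCACS and 95.1 ± 26.0 CPM (SD, n = 5) for CACS and a log2 fold change of -0.02 (95% interval -0.45 to 0.42).

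The 4 acyl-CoA dehydrogenases, which take successively shorter chains, had log2 fold changes of 0.07 for Acadvl (very long-chain), 0.18 for Acadl (long-chain), -0.12 for Acadm (medium-chain) and -0.10 for Acads (short-chain). Acadm (ENSMUSG00000062908, chr3:153922357-153944632, reverse strand of GRCm38) measured 449, 446, 332, 451 and 527 CPM in NCACS mice 11 to 15 and 365, 493, 574, 335 and 265 CPM in CACS mice 16 to 20. CACS mouse 18 was highest and CACS mouse 20 lowest of all 10 livers, so that the CACS range enclosed the NCACS range. The Acadm means were 441 ± 69.8 CPM (SD, n = 5) for NCACS and 406 ± 125 CPM (SD, n = 5) for CACS, and the log2 fold change had a 95% interval of -0.56 to 0.33 (edgeR adjusted p = 0.781). Without CACS mouse 20 the Acadm value was 0.0021, and without CACS mouse 18 it was -0.28. Acads had the narrowest interval of the 38 genes (-0.32 to 0.12).

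Hadha and Hadhb encode the subunits of the trifunctional protein, which performs the last 3 steps on long chains. Hadha (ENSMUSG00000025745, chr5:30118304-30155162, reverse strand of GRCm38) measured 389, 367, 256, 327 and 387 CPM in NCACS mice 11 to 15 and 331, 339.6, 487, 284 and 267 CPM in CACS mice 16 to 20. All CACS livers except mouse 18 lay within the NCACS range, and the means were 345 ± 55.8 CPM (SD, n = 5) for NCACS and 342 ± 86.9 CPM (SD, n = 5) for CACS. The Hadha log2 fold change was -0.01 (95% interval -0.40 to 0.37, edgeR adjusted p = 0.972). Its sign turned when any of 5 mice was left out, within -0.18 to 0.06. The partner subunit Hadhb had a log2 fold change of -0.05, and the short-chain enzymes Hadh and Echs1 had -0.19 and -0.02. Acaa2, the mitochondrial thiolase, had means of 962 ± 168 CPM (SD, n = 5) for NCACS and 968 ± 169.7 CPM (SD, n = 5) for CACS, with a log2 fold change of 0.01 (95% interval -0.34 to 0.36). Of the auxiliary enzymes for unsaturated chains, the isomerase Eci1 had a log2 fold change of -0.12 and the dienoyl-CoA reductase Decr1 of -0.38 (95% interval -1.01 to 0.26).

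The electron transfer flavoprotein takes electrons from the dehydrogenases to the respiratory chain. The log2 fold changes were -0.0035 for its α subunit Etfa, -0.10 for its β subunit Etfb and -0.37 for the ubiquinone oxidoreductase Etfdh. Etfdh was highest in NCACS mouse 15 (462 CPM) and lowest in CACS mouse 20 (163 CPM), and its value was -0.18 without NCACS mouse 15. In the annotation, 58.2% of the Etfb exon bases are overlapped on the same strand by other genes and 42.9% of the Acadvl exon bases on the opposite strand, so counts of these 2 genes are less certain.

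For ketone body metabolism, Bdh1 interconverts acetoacetate and 3-hydroxybutyrate (ENSMUSG00000046598, chr16:31422280-31458901, forward strand of GRCm38). Its level was 356, 385, 256, 326 and 344 CPM in NCACS mice 11 to 15 and 256, 310.3, 412, 290.3 and 164 CPM in CACS mice 16 to 20. CACS mouse 18 was highest and CACS mouse 20 lowest, and the other 3 CACS livers lay at 256 to 310.3 CPM, near or within the NCACS range. The Bdh1 means were 334 ± 48.2 CPM (SD, n = 5) for NCACS and 286 ± 89.8 CPM (SD, n = 5) for CACS, with a log2 fold change of -0.22 (95% interval -0.67 to 0.23, edgeR adjusted p = 0.579). Acat1, the mitochondrial thiolase that joins acetyl-CoA units into acetoacetyl-CoA, measured 422, 409, 218, 371 and 418 CPM in NCACS mice 11 to 15 and 329.5, 462, 651, 344 and 183 CPM in CACS mice 16 to 20. The same 2 CACS mice marked both ends of the whole range, 3.57-fold apart. The Acat1 log2 fold change was 0.10 (95% interval -0.54 to 0.74, edgeR adjusted p = 0.883), and omitting CACS mouse 18 gave -0.16 and omitting NCACS mouse 13 gave -0.04.

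Among the peroxisomal genes, Crot had the lowest fold change of the 38 (ENSMUSG00000003623, chr5:8966033-8997324, reverse strand of GRCm38), and it is given liver by liver because of its values, after they had been seen. Its product attaches medium-chain acyl groups to carnitine for their way out of the peroxisome. Crot measured 469.8, 534, 418, 605 and 1232 CPM in NCACS mice 11 to 15 and 302, 504, 412, 208 and 151 CPM in CACS mice 16 to 20. NCACS mouse 15 was far above all other livers, 4 CACS livers were below every NCACS liver, and CACS mouse 17 lay above 2 NCACS livers. The Crot means were 652 ± 332 CPM (SD, n = 5) for NCACS and 315 ± 145 CPM (SD, n = 5) for CACS, a log2 fold change of -1.05 (95% interval -1.85 to -0.25, edgeR adjusted p = 0.126), with a standard error of 0.365 and an unadjusted edgeR p of 0.0145. DESeq2 gave -1.06 with an adjusted p of 0.0297, and a two-sided exact permutation test of mean log2 CPM over 252 assignments gave an unadjusted p of 0.0317, the lowest of the 38 genes, where the smallest possible is 0.00794. Without NCACS mouse 15 the log2 fold change was -0.68, and without CACS mouse 17 it was -1.28. In the fits with each mouse left out, the lowest edgeR adjusted p was 0.0815.

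**Figure D2:**
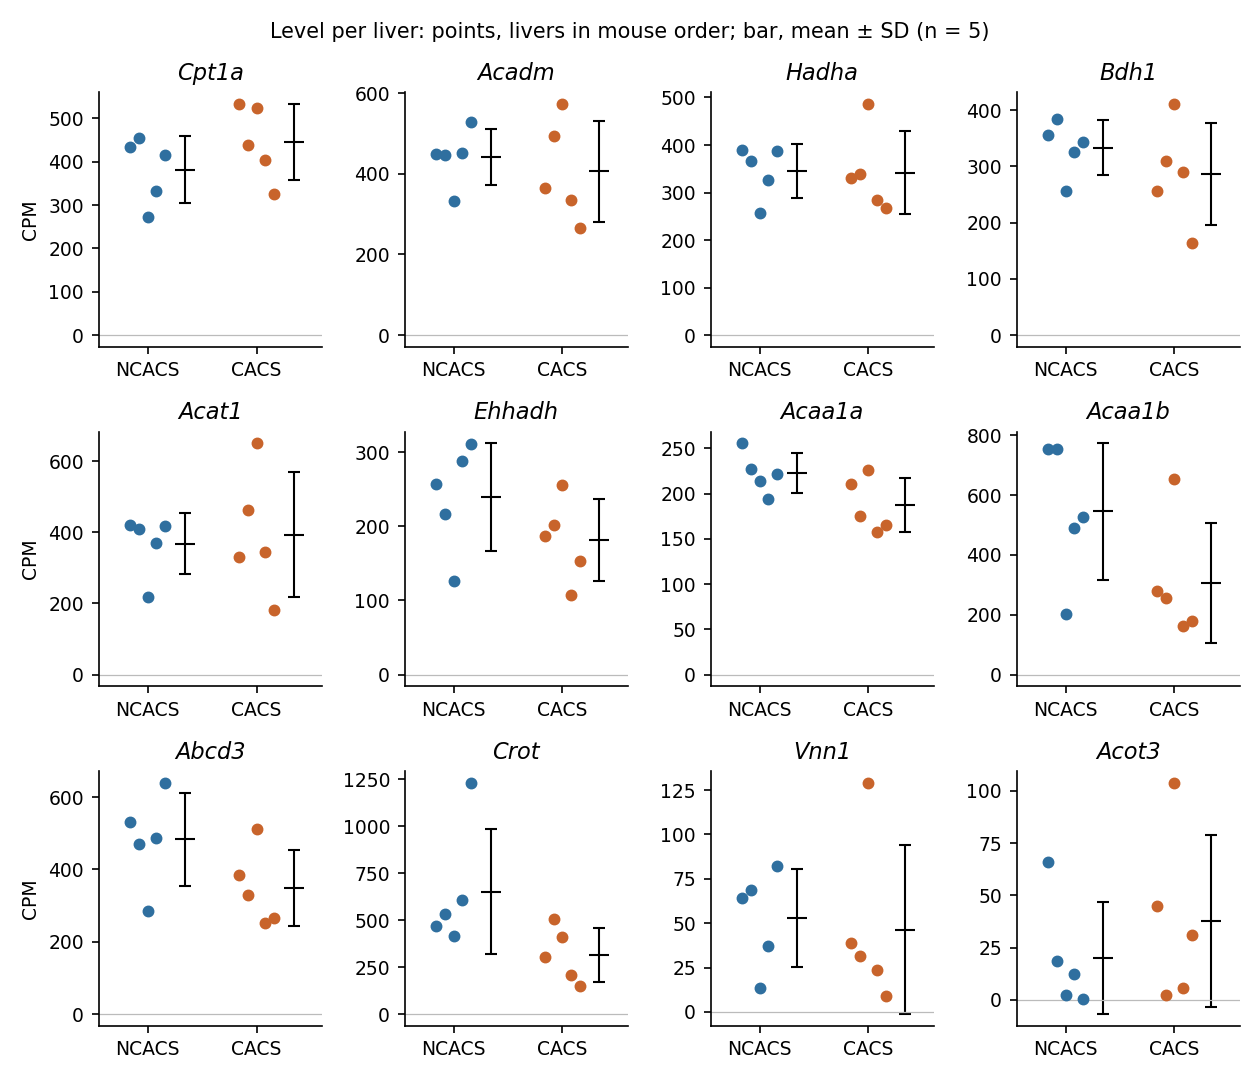
Level in CPM (y axis, from 0) of 12 genes in each liver (points, in mouse order from left to right) of the NCACS and CACS groups (x axis), with the mean and SD (bar, n = 5) beside each group. The groups overlap in every panel, and NCACS mouse 15 is the high point for Crot.

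The genes of the peroxisomal chain-shortening steps, Acox2, Ehhadh, Hsd17b4, Acaa1a and Acaa1b, all had fitted log2 fold changes below 0, from -0.83 to -0.04, and none passed the test. Ehhadh, the bifunctional hydratase and dehydrogenase (ENSMUSG00000022853, chr16:21761287-21787807, reverse strand of GRCm38), measured 257, 216, 126, 288 and 311 CPM in NCACS mice 11 to 15 and 186, 202, 256, 108 and 153 CPM in CACS mice 16 to 20. NCACS mice 12 and 13 were within the CACS range, and all CACS livers except mouse 19 were within the NCACS range. The Ehhadh log2 fold change was -0.40 (95% interval -0.97 to 0.16, edgeR adjusted p = 0.392). Acox2, an oxidase of bile acid intermediates and branched chains, had means of 304 ± 52.1 CPM (SD, n = 5) for NCACS and 294 ± 22.8 CPM (SD, n = 5) for CACS. Hsd17b4, the other bifunctional enzyme, had a log2 fold change of -0.20 (95% interval -0.65 to 0.25).

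Acaa1a and Acaa1b, on opposite strands of the same chromosome, are genes for the peroxisomal thiolases (ENSMUSG00000036138, chr9:119339676-119350299, forward strand of GRCm38; ENSMUSG00000010651, chr9:119148023-119157093, reverse strand of GRCm38). Acaa1a measured 256, 228, 214, 195 and 222 CPM in NCACS mice 11 to 15 and 211, 176, 227, 158 and 166 CPM in CACS mice 16 to 20. CACS mice 17, 19 and 20 were below every NCACS liver, whereas CACS mice 16 and 18 were within the NCACS range. The Acaa1a log2 fold change was -0.25 (95% interval -0.52 to 0.02, edgeR adjusted p = 0.267). Acaa1b varied more, at 754, 756, 202, 492 and 527 CPM in NCACS mice 11 to 15 and 279, 257, 655, 163 and 178 CPM in CACS mice 16 to 20. CACS mice 16 to 18 were within the NCACS range and NCACS mice 13 to 15 within the CACS range, so that the groups overlapped. The Acaa1b means were 546 ± 228 CPM (SD, n = 5) for NCACS and 306 ± 201 CPM (SD, n = 5) for CACS, with a log2 fold change of -0.83 (95% interval -1.75 to 0.08, edgeR adjusted p = 0.274) that ranged from -1.32 (CACS mouse 18 omitted) to -0.67 (CACS mouse 19 omitted). Of the 100-base windows of Acaa1b transcripts, 19.3% occur also in another gene, chiefly Acaa1a, so some reads cannot be assigned to 1 of the pair.

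The importer genes Abcd3 and Abcd2 differed in level and direction. Abcd3, which carries long and branched acyl-CoA into peroxisomes and whose values were listed after they had been seen, measured 532, 471, 286, 487 and 640.0 CPM in NCACS mice 11 to 15 and 385, 329, 512, 252 and 266 CPM in CACS mice 16 to 20. CACS mice 16 to 18 were within the NCACS range and NCACS mice 12 to 14 within the CACS range. The Abcd3 log2 fold change was -0.47 (95% interval -0.98 to 0.04, edgeR adjusted p = 0.272). Abcd2 had at most 17.6 CPM and a log2 fold change of 0.21 (95% interval -1.13 to 1.55). Eci2, an enoyl-CoA isomerase, had a log2 fold change of 0.28, Decr2, the peroxisomal dienoyl-CoA reductase, of -0.23, and Acad11, an acyl-CoA dehydrogenase of longer chains, of -0.01. Each of these 3 had a 95% interval within 1 log2 unit of 0.

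The acyl-CoA thioesterases, which release free fatty acids from CoA, include the genes with the widest spans between livers, Acot3 and Acot1. Acot2, Acot1, Acot4 and Acot3 lie in this order on the forward strand of chromosome 12 between 83987861 and 84060402, and their products act in mitochondria, the cytosol and, for the last pair, peroxisomes. Acot1 measured 16.9, 17.5, 2.33, 6.26 and 6.21 CPM in NCACS mice 11 to 15 and 20.4, 7.97, 50.9, 3.49 and 2.86 CPM in CACS mice 16 to 20. CACS mouse 18 was highest, with the next liver, CACS mouse 16, at 20.4 CPM, and the log2 fold change was 0.79 (95% interval -0.88 to 2.47, edgeR adjusted p = 0.587), or -0.18 without that mouse. Acot2 measured 4.93, 4.01, 1.49, 3.10 and 2.19 CPM in NCACS mice 11 to 15 and 4.57, 2.39, 8.84, 0.704 and 2.21 CPM in CACS mice 16 to 20. The log2 fold change was 0.24 (95% interval -0.94 to 1.43, edgeR adjusted p = 0.836), and without CACS mouse 18 it was -0.35. Acot3, listed in full after its values had been seen, measured 65.9, 18.8, 2.23, 12.4 and 0.463 CPM in NCACS mice 11 to 15 and 44.8, 2.26, 104, 5.75 and 31.2 CPM in CACS mice 16 to 20. This 225-fold span between livers, at 15 to 3188 counts, was the widest of the 38 genes, and CACS mouse 18 was again the highest. The log2 fold change of Acot3 was 0.91 (95% interval -1.49 to 3.31), and that of Acot4 was 0.45 (-0.54 to 1.43). Shared 100-base windows made up 17.1% of Acot2, 12.4% of Acot1 and 13.8% of Acot3. The peroxisomal Acot8 and cytosolic Acot12 had log2 fold changes of -0.27 and 0.03.

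Vnn1 encodes a pantetheinase, which recycles the vitamin part of CoA, and is a known PPARα target in liver (ENSMUSG00000037440, chr10:23894688-23905343, forward strand of GRCm38). Its level was 64.2, 68.7, 13.3, 37.0 and 82.1 CPM in NCACS mice 11 to 15 and 38.8, 31.5, 129, 23.7 and 8.82 CPM in CACS mice 16 to 20. CACS mouse 18 was highest and CACS mouse 20 lowest, with NCACS mouse 13 next lowest. The means were 53.1 ± 27.6 CPM (SD, n = 5) for NCACS and 46.4 ± 47.6 CPM (SD, n = 5) for CACS, and the log2 fold change was -0.20 (95% interval -1.56 to 1.17, edgeR adjusted p = 0.892). Without CACS mouse 18 it was -1.04, and without CACS mouse 20 it was 0.07. Crat, the carnitine acetyltransferase found in both organelles, had a log2 fold change of -0.04 (95% interval -0.74 to 0.67).

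Read liver by liver, the 38 genes tended to be high or low together in single mice of both groups. NCACS mouse 13 was the lowest of its group for 30 of the 38 genes, a place it held for 27.0% of all genes tested. CACS mouse 18 was the highest of its group for 33 of the 38, against 19.6% of all genes, and the highest of all 10 livers for 21, against 8.75%. CACS mouse 20 was the lowest of its group for 25 genes (22.6% of all genes), and NCACS mouse 15 the highest of its group for 17 (23.7%). By compartment, CACS mouse 20 was the lowest of its group for 17 of the 20 mitochondrial and 4 of the 14 peroxisomal genes. CACS mouse 19 was the lowest of its group for 2 mitochondrial and 8 peroxisomal genes (18.6% of all genes). These shares are descriptions, since the genes of a liver share its library. The median deviation from the gene's mean log2 CPM was -0.48 in NCACS mouse 13 and 0.44 in CACS mouse 18, while over all genes it was -0.02 and 0.00. The mitochondrial and peroxisomal genes shared this order at its ends, with medians of -0.42 and -0.56 in NCACS mouse 13 and 0.46 and 0.39 in CACS mouse 18. Their weight changes were -11% and -33%, within the range of the other mice of the group for mouse 13 and the largest loss for mouse 18.

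**Figure D3:**
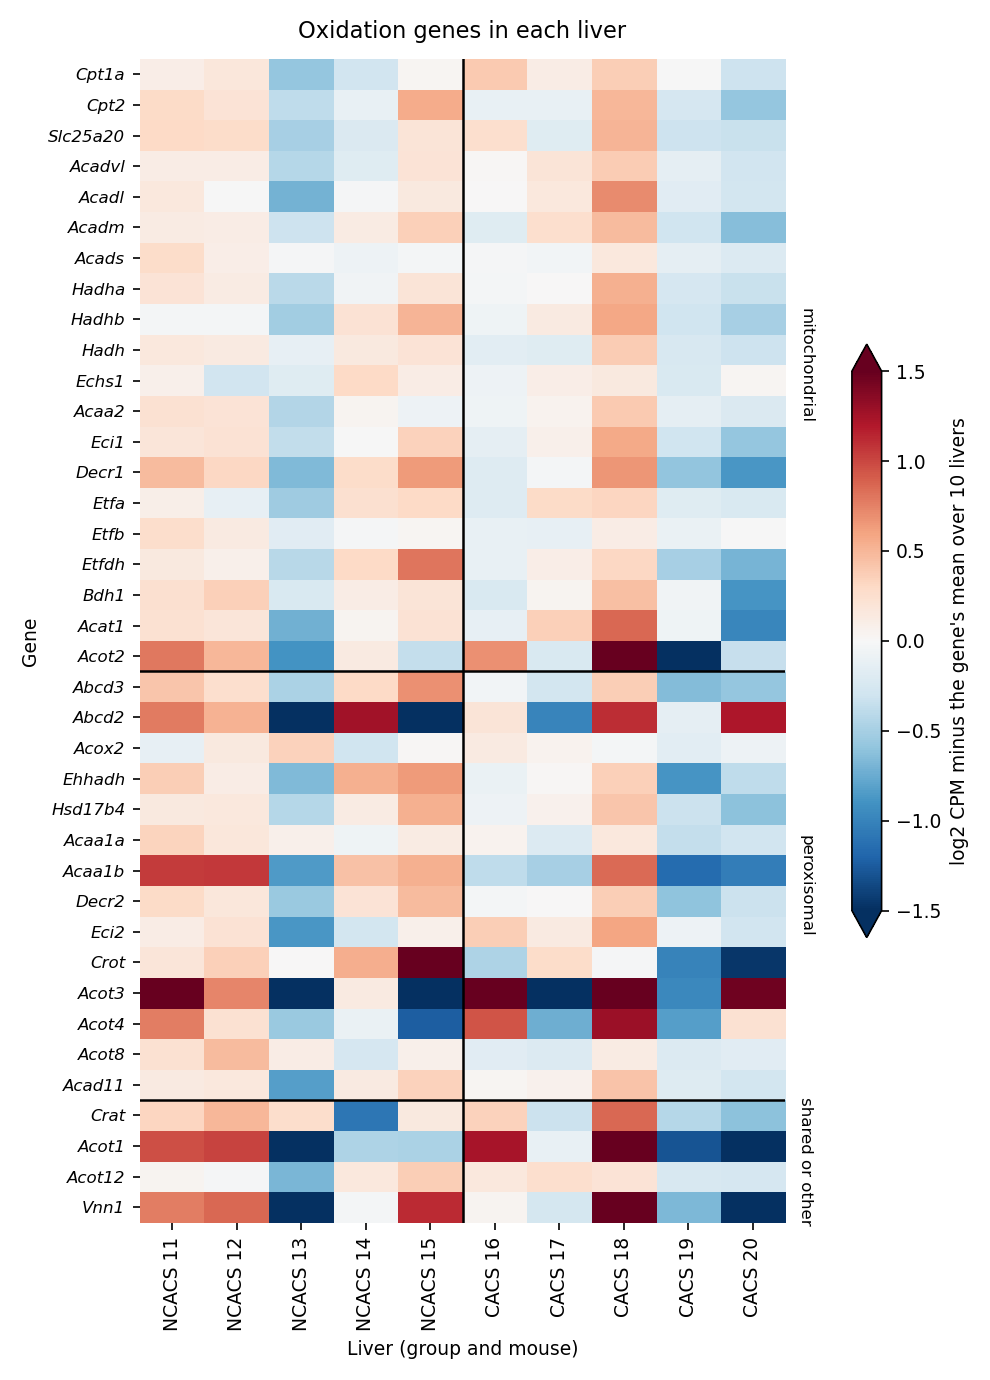
Heat map of the 38 genes (rows, split into mitochondrial, peroxisomal and shared or other) in the 10 livers (columns, NCACS left and CACS right). Colour is log2 CPM minus the gene's mean over the 10 livers, cut at 1.5 in either direction; NCACS 13, CACS 19 and CACS 20 are mostly blue and CACS 18 mostly red.

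Summed over the 38 genes, CPM ran from 6657 in NCACS mouse 13 to 11316 in NCACS mouse 15, and from 6440 in CACS mouse 20 to 11825 in CACS mouse 18. The lowest and the highest liver of the 10 were therefore both cachectic. The group means of this sum were 9563 ± 1766 and 8542 ± 2100 CPM (SD, n = 5 each), and they differed by less than either SD.

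**Figure D4:**
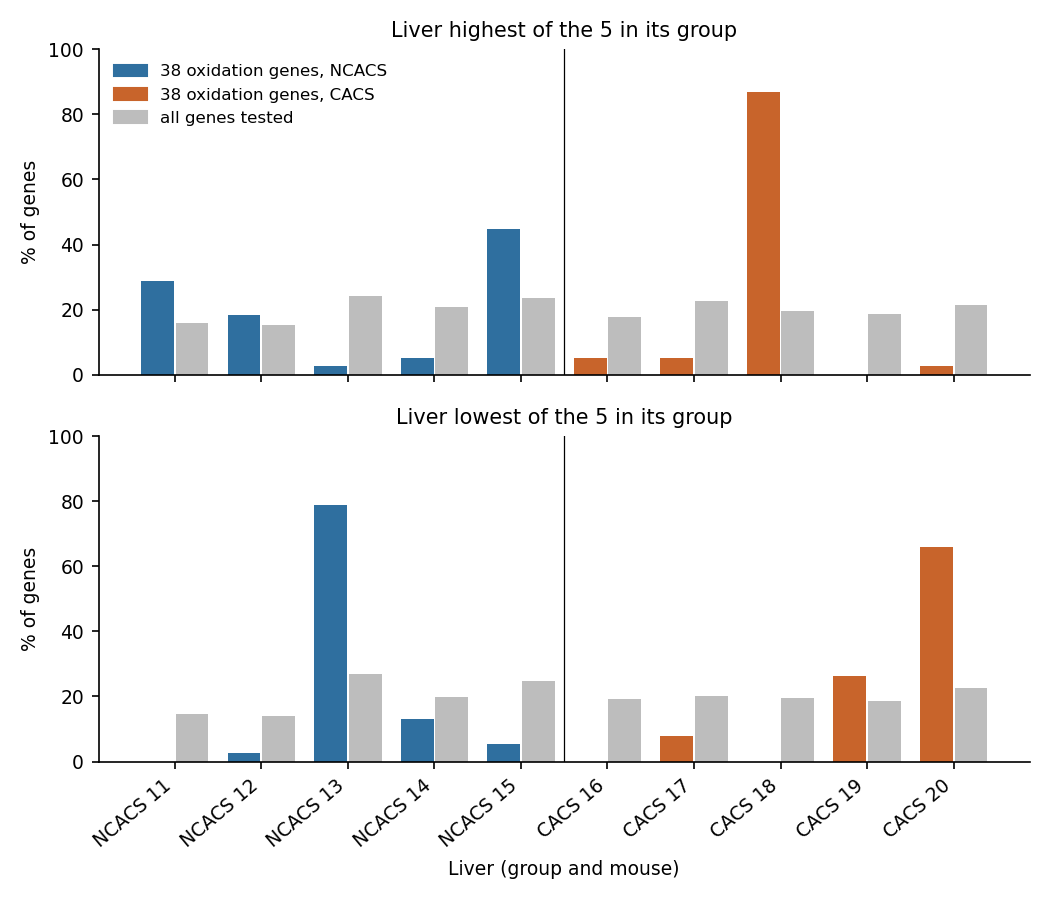
Share of genes (y axis, percent) for which a liver was the highest (top) or lowest (bottom) of the 5 in its group, for the 38 oxidation genes (coloured) and all 14143 genes tested (grey). CACS 18 was highest for 33 of 38 and NCACS 13 lowest for 30 of 38.

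Per length of annotated exons (all transcripts of a gene merged), the thiolase Acaa2 had the highest level in NCACS livers, at 634.7 CPM per kb, followed by Acaa1b at 278 and Etfb at 252.5. The lowest were Acot2 at 1.43 and Abcd2 at 1.49 CPM per kb. Cpt1a stood at 49.96 and Cpt2 at 68.8 CPM per kb, and the subunits Hadha and Hadhb at 39.5 and 14.04. In CACS livers Acaa2 was at 638.8 CPM per kb and Acaa1b at 156.1.

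Among 36 tested of 38 further genes of oxidation and ketone metabolism, edgeR called 1 gene higher in CACS livers, Abcd4 (3.80% of all genes were called in either direction). Abcd4, a transporter of the same family that acts in lysosomal cobalamin export, measured 13.7, 15.9, 15.3, 14.8 and 16.8 CPM in NCACS mice 11 to 15 and 34.5, 20.9, 30.1, 31.9 and 31.8 CPM in CACS mice 16 to 20, with no overlap. Its log2 fold change was 0.96 (edgeR adjusted p = 0.00641) and passed with any 1 mouse left out. The median over the 36 genes was -0.11.

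Of 15 transcriptional regulators of oxidation, edgeR called 1, Hnf4a, a hepatocyte nuclear receptor, which was higher in CACS livers. The share called over all genes tested was 3.80% in either direction. Hnf4a measured 632, 636, 637, 568 and 688 CPM in NCACS mice 11 to 15 and 908, 826, 729, 1007 and 988 CPM in CACS mice 16 to 20, without overlap, with a log2 fold change of 0.50 (edgeR adjusted p = 0.0435) that passed in only 1 of the 10 fits with a mouse left out (without CACS mouse 18), with adjusted p up to 0.0974 in the others. Ppara itself, the gene for PPARα, shown in every liver by a choice made after its values were seen, measured 131, 106, 57.8, 104 and 96.5 CPM in NCACS mice 11 to 15 and 116, 62.6, 102, 86.0 and 67.0 CPM in CACS mice 16 to 20. NCACS mouse 13 was the lowest, the groups overlapped, and the log2 fold change was -0.19 (95% interval -0.67 to 0.29). The coactivator gene Ppargc1a had a log2 fold change of 0.28 (95% interval -0.24 to 0.81).

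Of 20 known PPARα targets outside the 38 genes, edgeR called 0, with 5 at an unadjusted p-value under 0.05, while DESeq2 called 1 (Plin2) and limma-voom 0. Of all genes tested, edgeR called 3.80%, 21.6% had an unadjusted edgeR p-value under 0.05, and DESeq2 called 9.80%. Fitted directions were divided, 10 above and 10 below 0, with a median of -0.01. The ω-hydroxylase genes Cyp4a10 and Cyp4a14 had log2 fold changes of 1.005 and 1.12 (edgeR adjusted p = 0.386 and 0.362). Cyp4a14, likewise chosen after its values were seen, measured 359, 728, 61.7, 309 and 194 CPM in NCACS mice 11 to 15 and 809, 1216, 1225, 135 and 211 CPM in CACS mice 16 to 20. NCACS mouse 13 was lowest and CACS mouse 18 highest of the 10 livers. Fgf21, a hormone of the fasted liver, was at or below 3.37 CPM on average in either group, and its log2 fold change of 2.09 (edgeR adjusted p = 0.202) became 0.50 without CACS mouse 18. Pdk4, which restrains pyruvate oxidation, had a log2 fold change of -0.83, which turned to 0.24 when its highest liver, NCACS mouse 15, was left out. Over these 20 genes, NCACS mouse 13 was the lowest of its group for 15 and CACS mouse 18 the highest of its group for 16. Over all genes tested, the shares were 27.0% and 19.6%. Among the 36 further oxidation genes the counts were 19 and 13, and CACS mouse 17 was the highest for 12. Among the 15 regulators they were 9 and 5, and among 16 genes of peroxisome biogenesis 8 and 6.

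Cell type markers were read beside these values. Of 48 markers in 10 lists, 40 were tested, and edgeR called 2 lower and 0 higher, against 3.80% of all genes in either direction. The 5 tested hepatocyte markers had 2 fitted values above 0 and 3 below, with 0 called, and summed to 75641 to 117400 CPM in NCACS and 106760 to 136070 CPM in CACS livers. The 7 Kupffer cell and macrophage markers all had fitted values below 0, with Cd5l called, and their sums were 155.7 to 262.8 CPM in NCACS and 94.2 to 182.1 CPM in CACS livers. The 5 sinusoidal endothelial markers all had fitted values above 0, with 0 called, at 119.8 to 162.4 and 152.2 to 198.5 CPM. The other call was Cela1, from the pancreatic acinar list. The part of cell composition in the levels of the oxidation genes was not tested.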

How the data were processed

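RNA from 10 livers was sequenced as stranded poly(A) libraries in single reads. The authors aligned the reads to GRCm38 with STAR 2.4.1d, counted them per gene with HTSeq 0.6.1 and deposited raw counts without normalization, with 1 column per mouse. The annotation release and strand setting are not given in the sources used here, so genes that overlap others are less certain. Symbols and positions were read from GENCODE M21 (also GRCm38), in which 1167 of 43629 identifiers (75 of those tested) had no symbol. There were 0 unused columns.

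The deposited counts were passed through filterByExpr, scaled by TMM and fitted with edgeR 4.0.16 in R 4.3.3 (quasi-likelihood test, condition only, all 10 livers). A Benjamini-Hochberg adjusted p-value under 0.05 over all genes was the threshold. Standard errors and 95% intervals were derived from the fold change and its F statistic, and log2 CPM used a prior count of 2. Alternatives were DESeq2 1.42.0, limma-voom (limma 3.58.1), other factors and filters, and leaving out each mouse in turn. The batch correction that the authors applied over a larger set of libraries was not repeated, and the labels name no batch. No 2 livers of a group were 1 library, since chi-square per degree of freedom between them was at least 34.5. On simulated counts with 200 genes changed 4-fold, edgeR recovered 194 with 13 false calls among 13966 genes. On the same counts DESeq2 recovered 197 with 38 false calls, and limma-voom recovered 188 with 12.

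The 38 genes, the lists beside them and their grouping were chosen with earlier results of these data known. Values in every liver are given for genes called or without overlap, for Cpt1a, Cpt2, Acadm, Hadha, Ehhadh, Acaa1a, Acaa1b, Acot1, Acot2, Bdh1, Acat1 and Vnn1, and for others where the text says that they were chosen after their values had been seen. Outside the 38 genes, those called in the lists of further oxidation genes, regulators, PPARα targets and peroxisome biogenesis were named, with Ppara, Ppargc1a, Pdk4, Cyp4a10, Cyp4a14 and Fgf21. Some items of the genotype and of the lists are not reported here. Protein sequences were not used here.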

Additional observations from a re-analysis of the deposited data

Results flagged for a closer look

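For each of the 38 genes, Dixon's ratio was taken on log2 CPM. It is the gap between the extreme liver of a group and its nearest neighbour, divided by the range of the group. CPM values are printed beside the ratios to show the level only. Ratios on CPM were not used, so the flagged set holds for the log2 scale. The critical value of the ratio is 0.71 for 5 livers. Of 76 gene and group combinations, 8 were past this value, where chance flags about 1 in 20 groups, and the genes of a liver are not independent. In 5 of the 8, NCACS mouse 13 was the low liver. For Acadl the ratio was 0.801, with 136.6 CPM in that mouse and 221.3 CPM in the next. For Hadh in NCACS livers it was 0.776 (302.3 and 359.6 CPM). For Decr1 it was 0.721 (118.8 and 227.3 CPM). For Acat1 it was 0.807 (218.4 and 371.4 CPM). For Acad11 it was 0.819 (161.7 and 314.3 CPM). CACS mouse 18 was the high liver for Hadh, with a ratio of 0.783 (426.3 and 294.4 CPM), and for Acot8, with 0.901 (10.9 and 8.85 CPM). NCACS mouse 14 was the low liver for Crat, with a ratio of 0.783 (29.1 and 68.7 CPM).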

How the results depend on the processing

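Across 17 alternatives, 20 of the 38 genes kept their fitted direction in all, and 34 did so in the 7 that left out no mouse. DESeq2 called 1 of the 38 genes, lower and peroxisomal (Crot, log2 fold change -1.06, adjusted p = 0.0297), and the edgeR and limma-voom alternatives called 0. Over all genes, DESeq2 called 1386 (672 higher, 714 lower) where edgeR called 538, and edgeR without a filter on low counts called 173 higher. With each mouse left out in turn, edgeR called 178 to 519 genes (79 to 246 higher, 96 to 273 lower) and 0 of the 38 each time, and the count was over 1.5 times lower than 538 in each of these fits except those without CACS mouse 17 or 18. The median log2 fold change then ranged from -0.20 to 0.01 over the 38 genes, from -0.17 to 0.03 over the mitochondrial and from -0.33 to -0.11 over the peroxisomal genes. Among the genes listed liver by liver, values that changed sign in these fits ranged from -0.28 to 0.0021 for Acadm, -0.18 to 0.064 for Hadha, -0.18 to 1.11 for Acot1, -0.35 to 0.51 for Acot2, -0.16 to 0.28 for Acat1 and -1.04 to 0.072 for Vnn1. With limma-voom Acot2 was at -0.12. The cause of these differences was not tested. No paired analysis was possible because mice 11 to 15 and 16 to 20 have no number in common. Acot3 had as few as 15 counts in a liver, which limits its precision.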

Other observations

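Of 16 tested genes of peroxisome biogenesis, edgeR called 0 higher and 1 lower in CACS livers, and the median log2 fold change was -0.03. Over all genes tested, 3.80% were called in either direction. The called gene was Pex11g, of the family that shapes and divides peroxisomes. It measured 65.0, 56.6, 65.7, 58.5 and 60.6 CPM in NCACS mice 11 to 15 and 45.0, 47.6, 47.0, 46.0 and 49.0 CPM in CACS mice 16 to 20, without overlap. Its log2 fold change was -0.39 (95% interval -0.55 to -0.23, edgeR adjusted p = 0.0222), with a range of -0.41 to -0.36 over the fits that omit 1 mouse, and it no longer passed without NCACS mouse 11 (edgeR adjusted p = 0.0569), CACS mouse 16 or CACS mouse 19. For all 16 genes the 95% interval lay within 1 log2 unit of 0.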
